A study of Mus with 30 samples.

Results

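Cox5a and Sdhd are nuclear genes for 2 subunits of the mitochondrial respiratory chain, and their transcripts were followed here in the hearts of 30 mice. They were chosen by transcript identifier, ENSMUST00000000090 for Cox5a and ENSMUST00000000175 for Sdhd, and make up 2 of the 36503 transcripts listed in the deposited tables. The tables give identifiers alone, and the pairing of these identifiers with gene symbols was part of the choice and was not checked against an annotation. Both are listed in the tables of all 30 mice and both passed the filter on low values in every comparison. The choice was made with measured values in view, in particular the lower Cox5a in the Ang II + gastrodin group than in the Ang II group, so the values of that comparison are given as a description with no test. The study asked which cardiac transcripts differ when hypertension is induced with angiotensin II (Ang II), a peptide hormone that raises blood pressure, and when a drug is given with it.

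Cardiac tissue came from C57BL/6 mice, an inbred laboratory strain, with 5 mice in each of 6 groups and 1 library per mouse. In the Ang II + ethoxysanguinarine, Ang II + baicalin and Ang II + gastrodin groups (ETH, BAI and GAS in the labels), Ang II was infused at 500 ng/kg/min for 28 days and the drug was given at 5 mg/kg/day. The Ang II + valsartan group (VAL) had the same infusion with valsartan, a blocker of the Ang II receptor, at 10.4 mg/kg/day. The Ang II group had the infusion with saline in place of a drug, and the Control group had saline for both. The methods describe male mice that were 8 weeks old, for the Control, Ang II and gastrodin groups, and give 6 mice per group where the labels give 5. For these groups, the methods say that RNA came from the left portion of a heart divided lengthwise.

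The respiratory chain of the inner mitochondrial membrane passes electrons from metabolic fuels to oxygen and pumps protons, which drives the synthesis of ATP. Cox5a is a nuclear subunit of cytochrome c oxidase (complex IV), the enzyme that hands electrons from cytochrome c to oxygen. Sdhd is a membrane anchor subunit of succinate dehydrogenase (complex II), which oxidises succinate in the citric acid cycle and passes the electrons to ubiquinone. Complex IV has subunits from both the nuclear and the mitochondrial genome, whereas complex II is encoded by nuclear genes alone. Heart muscle is rich in mitochondria and depends on this chain for most of its ATP.

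Both genes lie on mouse chromosome 9. In the RefSeq annotation of GRCm38, the build that mm10 denotes, Cox5a spans chr9:57517328-57532427 and Sdhd spans chr9:50596340-50603849, which leaves 6.91 Mb between them. Both are annotated as protein coding and no other annotated gene overlaps either of them. The nearest gene to Sdhd is Timm8b, which encodes a small chaperone of mitochondrial protein import, and 51 bases separate them. The neighbours of Cox5a are Rpp25 and Fam219b, at 11880 and 4257 bases. RefSeq lists 2 transcripts for Cox5a and 1 for Sdhd, and the values below belong to 1 Ensembl transcript of each gene, so reads assigned to another transcript of the same gene are not in them.

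The values were read as FPKM, that is, fragments per length of transcript and per size of the library, and summed to between 562189 and 654188 in a mouse. The 10 most abundant transcripts took between 48.5% and 64.2% of that sum. The absolute depth is unknown. The commonest ratio among transcripts under 0.3 FPKM gives an estimate of the depth of each library relative to Control mouse 5114. It lay between 0.852 and 1.02 in 28 mice, and at 0.578 in Control mouse 5155 and 0.652 in baicalin mouse 5113. No 2 mice had near-identical tables, since the correlation of log2 values over 28298 transcripts was at most 0.844. Marker genes of heart muscle and of other cell types were not checked here, because the files do not pair identifiers with gene names.

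Cox5a was an abundant transcript in every heart, at 364 to 616 FPKM with a median of 468 FPKM, and ranked between 50 and 79 from the top of its library. Its mean was highest in the Ang II group, and all 4 groups given a drug with Ang II had lower means. With ethoxysanguinarine the 5 mice had 414, 473, 364, 405 and 462 FPKM. With baicalin they had 421, 391, 397, 492 and 398 FPKM, and with gastrodin 432, 475, 483, 489 and 437 FPKM. The mice given valsartan had 482, 425, 446, 501 and 463 FPKM. Values in the Ang II group were 559, 542, 489.6, 523 and 616 FPKM, and Control mice had 386, 572, 501, 426 and 503 FPKM. The ethoxysanguinarine and gastrodin groups lay wholly below the Ang II group, as did 1.07% and 0.755% of all transcripts tested in these comparisons. With baicalin 1 mouse (5140) and with valsartan 1 mouse (5124) reached into the Ang II range, and the Control mice ranged widely, from 386 to 572 FPKM.

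**Figure D1:**
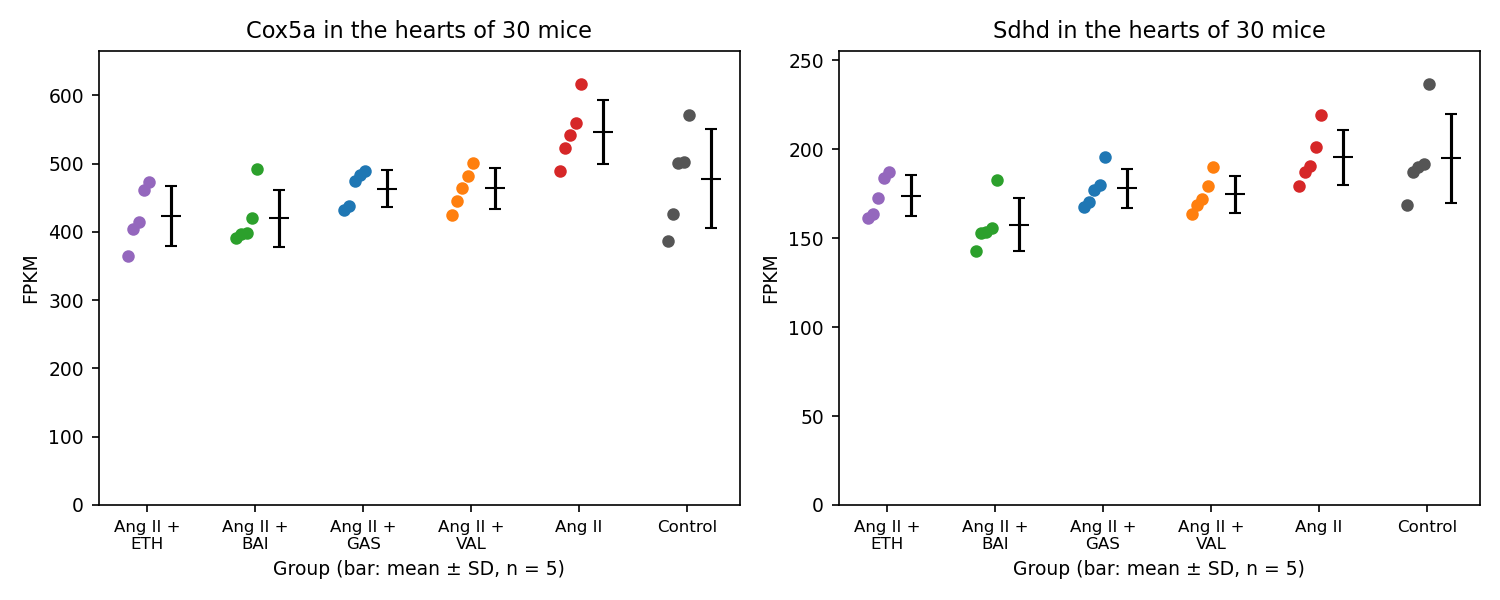
Level of Cox5a (left) and Sdhd (right) in FPKM on a linear axis from 0, by group. Each point is 1 of 5 mice, sorted by level within its group, and the bar gives the mean with the SD. The mean of Cox5a was highest in the Ang II group (546 FPKM), and the mean of Sdhd was lowest with baicalin (158 FPKM).

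Cox5a averaged 423 ± 44.3 FPKM with ethoxysanguinarine, 419.8 ± 41.7 FPKM with baicalin, 463 ± 26.9 FPKM with gastrodin, 464 ± 29.8 FPKM with valsartan, 546 ± 46.8 FPKM in Ang II mice and 477 ± 72.5 FPKM in Control mice (SD, n = 5 each). From low to high, the means thus ran baicalin, ethoxysanguinarine, gastrodin, valsartan, Control and Ang II. Each group overlapped with its neighbours in this order, and no step between neighbouring means was larger than the SD of both groups beside it. The step from Control to Ang II was larger than the SD of the Ang II group alone. That from ethoxysanguinarine to gastrodin was larger than the SD of the gastrodin group alone. These SDs describe single mice, so equal means of neighbours are not shown. The spread was widest in the Control group, with a coefficient of variation of 15.2%, and narrowest with gastrodin, with 5.81%.

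Gastrodin with Ang II is the comparison on which Cox5a was chosen. Its mean was 0.849 times that of the Ang II group, with a difference of -0.23 on log2(FPKM + 1), and all 25 pairs of a gastrodin and an Ang II mouse had the lower value in the gastrodin mouse. The gap between the groups was narrow, since the highest gastrodin mouse had 489.2 FPKM and the lowest Ang II mouse 489.6 FPKM. Groups that do not overlap, with the lower values under gastrodin, were found for 0.755% of the 18155 transcripts tested in this comparison, and nothing is read from this share because the comparison chose the transcript. With valsartan the mean was 0.849 times that of the Ang II group too. Scaling each library by its median ratio to the other libraries left the groups apart, with 431 to 474 FPKM under gastrodin and 494 to 564 FPKM in the Ang II group. After quantile normalization they overlapped and the difference was -0.11.

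The other comparisons were tested with limma, a moderated linear model fitted to log2(FPKM + 1) over all transcripts that reached 1 FPKM in 5 or more of the 10 libraries, with Benjamini-Hochberg adjustment over all of them. Of the 16 tests, 8 for each transcript, 0 passed an adjusted p of 0.05, and 7 had an unadjusted p under 0.05, all of these with the lower value in the drug group. All but Sdhd with baicalin against Control share the Ang II mice, so the 7 are not separate evidence. Of all transcripts, 4.23% with ethoxysanguinarine, 6.73% with baicalin and 3.53% with valsartan were lower than in Ang II at an unadjusted p under 0.05. With baicalin against Control it was 5.59%. At the adjusted threshold few transcripts of any kind passed. They were 0.132% of those tested with ethoxysanguinarine, 0.0165% with baicalin and 0.022% with valsartan against the Ang II group, 0.022% with gastrodin, and 0.0381% for Ang II against Control. Against the Control group they were 0.225% with ethoxysanguinarine, 0.0108% with baicalin, 0.0703% with gastrodin and 0.0108% with valsartan. In bulk tissue, fewer cells of a type and less RNA per cell cannot be told apart.

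Against the Ang II group, Cox5a differed by -0.37 with ethoxysanguinarine on the log2(FPKM + 1) scale (standard error 0.09, 95% confidence interval -0.56 to -0.17, unadjusted p = 0.00198, adjusted p = 0.289, limma). An unadjusted p under 0.05 with the lower value under ethoxysanguinarine was found for 4.23% of transcripts, and groups that did not overlap in this direction for 1.07%. With baicalin the difference was -0.38 (standard error 0.09, interval -0.57 to -0.19, unadjusted p = 0.00136, adjusted p = 0.255, limma), where 6.73% of transcripts were lower at an unadjusted p under 0.05. With valsartan it was -0.23 (standard error 0.07, interval -0.40 to -0.07, unadjusted p = 0.0102, adjusted p = 0.693, limma), against 3.53% of transcripts. These comparisons share the 5 Ang II mice with each other and with the comparison on which Cox5a was chosen, so they do not count as separate evidence of a high level in the Ang II group.

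Set against the Control group, the differences of Cox5a were closer to 0, and some of these comparisons hold Ang II or gastrodin mice whose values were in view when it was chosen. In the Ang II group it was 1.14 times the Control mean, a difference of 0.20 (interval -0.05 to 0.45, adjusted p = 0.627, limma). Without Control mouse 5155, the library of lowest relative depth and the highest Control value of both transcripts, this difference was 0.27 (unadjusted p = 0.0269, adjusted p = 0.555, limma). In that fit 854 of 17324 transcripts were higher at an unadjusted p under 0.05, and with all mice 4.61% were. Without Control mouse 5114, the lowest Control value of both transcripts, the difference of Cox5a was 0.13 (unadjusted p = 0.230, adjusted p = 0.767, limma). With ethoxysanguinarine Cox5a differed from Control by -0.17 (interval -0.43 to 0.10) and with baicalin by -0.18 (interval -0.43 to 0.08). Without mouse 5155 these differences were -0.10 and -0.11. Without mouse 5114 the difference with baicalin was -0.25 (unadjusted p = 0.0434, adjusted p = 0.595, limma). With all mice it was -0.04 under quantile normalization, -0.09 under median-ratio scaling and -0.07 under scaling to the sum of all but the 10 most abundant transcripts. With gastrodin and with valsartan the difference was -0.03 in each, with intervals from -0.27 to 0.20 and from -0.27 to 0.21, and its sign turned under quantile normalization, under scaling to that sum and without mouse 5155. Without mouse 5114 it was -0.10 in each. With all mice and as deposited, none of these 4 had an unadjusted p under 0.05, which 4.44%, 5.59%, 3.93% and 3.31% of transcripts had with the lower value under ethoxysanguinarine, baicalin, gastrodin and valsartan. The intervals leave room for differences of about the size seen against the Ang II group, so equal levels in the drug groups and the Control group are not shown.

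Sdhd was less abundant, at 143 to 236 FPKM with a median of 179 FPKM, and ranked between 163 and 223 in its library. Unlike Cox5a it had nearly equal means in the Ang II and Control groups, and the means of all 4 drug groups lay below both. The mice given ethoxysanguinarine had 161, 184, 173, 164 and 187 FPKM, and those given baicalin 154, 153, 143, 183 and 156 FPKM. With gastrodin the values were 179.6, 177, 170.4, 195 and 168 FPKM, and with valsartan 189.9, 168, 163, 179 and 172 FPKM. The Ang II mice had 201, 219, 187, 179 and 190.4 FPKM, and the Control mice 169, 236, 192, 189.9 and 188 FPKM. The 4 baicalin mice other than 5140 lay below every other mouse of the study, and 5140 lay within the range of each other group. Baicalin mouse 5113, of low relative depth, had the lowest Sdhd of all.

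Sdhd averaged 174 ± 11.6 FPKM with ethoxysanguinarine, 158 ± 15.0 FPKM with baicalin, 178 ± 10.9 FPKM with gastrodin, 175 ± 10.3 FPKM with valsartan, 196 ± 15.5 FPKM in Ang II mice and 195 ± 25.1 FPKM in Control mice (SD, n = 5 each). From low to high, the means ran baicalin, ethoxysanguinarine, valsartan, gastrodin, Control and Ang II. The Ang II and Control groups were level within their spread, and so were gastrodin, valsartan and ethoxysanguinarine. The step between gastrodin and Control was smaller than the SD of the Control group and larger than that of the gastrodin group. The step between baicalin and ethoxysanguinarine was larger than the SD of either group, although their ranges overlapped, and this pair was not tested.

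Of the Sdhd comparisons, baicalin gave the lowest p-values. Sdhd too was chosen with measured values in view, so its p-values here and below are given as a description. Sdhd with baicalin was 0.806 times its mean in the Ang II group, a difference of -0.31 (standard error 0.09, interval -0.50 to -0.12, unadjusted p = 0.00464, adjusted p = 0.290, limma). Against the Control group it was 0.809 times, a difference of -0.30 (standard error 0.10, interval -0.53 to -0.07, unadjusted p = 0.0157, adjusted p = 0.488, limma), against the 5.59% of transcripts that were lower at an unadjusted p under 0.05. Without mouse 5113 the differences were -0.28 and -0.27. Without mouse 5140, the highest Sdhd of the baicalin group, they were -0.36 and -0.35 (adjusted p = 0.153 and 0.390, limma). Under quantile normalization the difference from Control was -0.12 (unadjusted p = 0.140, adjusted p = 0.695, limma), and under scaling to the sum of all but the 10 most abundant transcripts it was -0.20. With ethoxysanguinarine Sdhd differed from the Ang II group by -0.17 (interval -0.33 to -0.0042, unadjusted p = 0.0454, adjusted p = 0.587, limma). With valsartan the difference was -0.16 (interval -0.32 to -0.00098, unadjusted p = 0.0489, adjusted p = 0.792, limma). Without Ang II mouse 5128, the highest Sdhd of its group, these were -0.13 and -0.12 (unadjusted p = 0.104 and 0.114, limma), and leaving out several other single mice also took these p-values above 0.05. With gastrodin the mean was 0.911 times that of the Ang II group, a difference of -0.13 that is given with no test.

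The remaining Sdhd comparisons had unadjusted p-values above 0.05 with all mice. Between the Ang II and Control groups the difference was 0.01 (interval -0.21 to 0.23, adjusted p = 0.982, limma), and its sign turned under all 3 other scalings tried and when any of several single mice was left out. Against the Control group Sdhd differed by -0.16 with ethoxysanguinarine (interval -0.37 to 0.05), by -0.12 with gastrodin (interval -0.33 to 0.08) and by -0.15 with valsartan (interval -0.36 to 0.06). Without Control mouse 5155 these differences were -0.086, -0.051 and -0.078. Without Control mouse 5114 the difference with ethoxysanguinarine was -0.21 (unadjusted p = 0.0486, adjusted p = 0.605, limma). With all mice, the difference with gastrodin was -0.074 under quantile normalization and -0.072 under scaling to the sum of all but the 10 most abundant transcripts, under which it was -0.089 with valsartan.

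**Figure D2:**
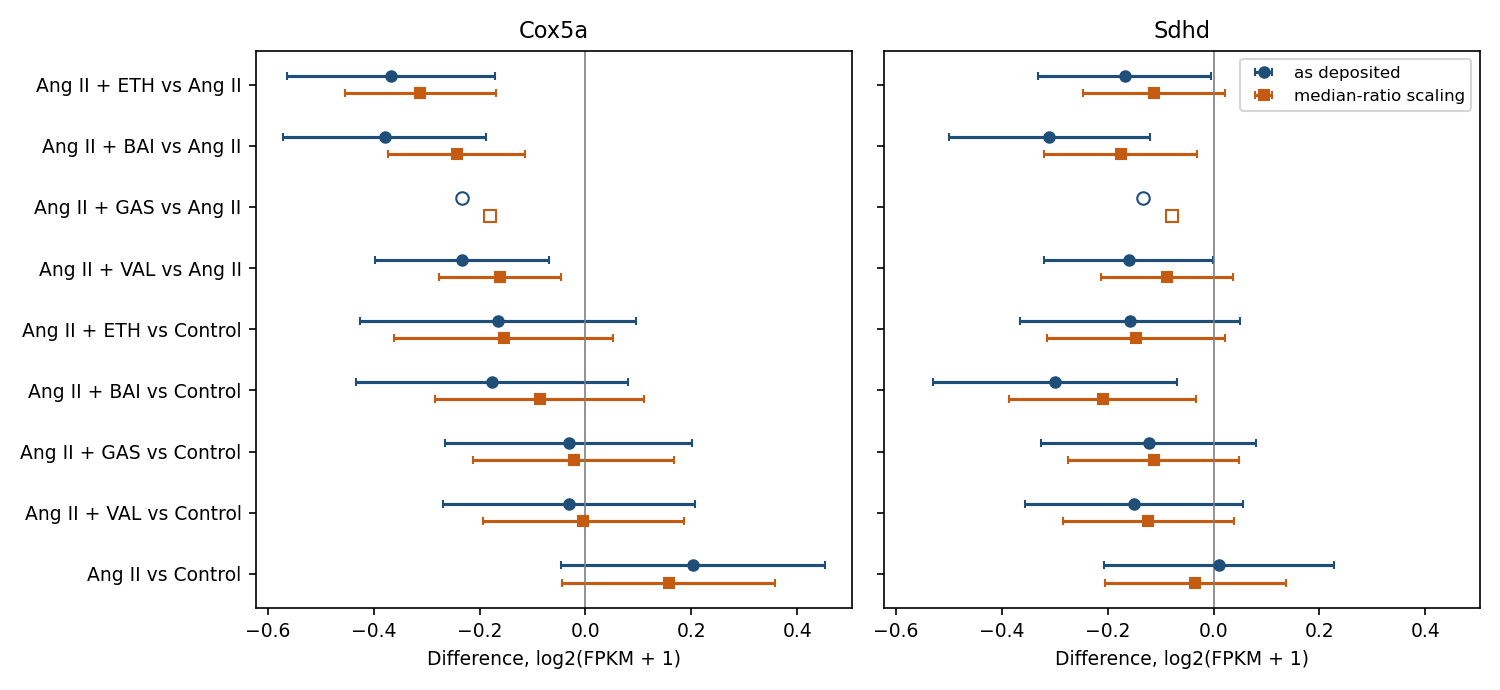
Difference between group means of log2(FPKM + 1) for Cox5a (left) and Sdhd (right), first-named group minus second. Circles are values as deposited and squares values after median-ratio scaling, bars are 95% confidence intervals from limma, and open symbols without bars mark gastrodin against Ang II, which was not tested. The intervals of Cox5a against Ang II lie below 0 under both scalings. They are not adjusted for the number of transcripts, and the Ang II values were in view when Cox5a was chosen. The lowest adjusted p of these comparisons was 0.255 as deposited and 0.167 after scaling (limma), so the intervals are given as a description. The intervals of Sdhd against Ang II with ethoxysanguinarine and valsartan reach 0 after scaling.

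FPKM values are shares of a library, so a few very abundant transcripts can move all others. The sum of all transcripts but the 10 most abundant lay between 233949 and 289615 FPKM in a mouse. It averaged 265782 ± 17069 with ethoxysanguinarine, 251843 ± 13509 with baicalin, 260824 ± 8149.8 with gastrodin, 259361 ± 18059.6 with valsartan, 276803 ± 6450.3 in the Ang II group and 270242 ± 9009 in the Control group (SD, n = 5 each). As for both transcripts, the mean sum was highest in the Ang II group, next in the Control group and lowest with baicalin. Both transcripts lie outside the 10 most abundant, so their shares can rise with this sum, as those of other transcripts can. How many others correlate with it as strongly was not computed. No trait particular to Cox5a and Sdhd is therefore read from the correlations below. Across the 30 mice Cox5a correlated with this sum (Pearson r = 0.700, adjusted permutation p = 0.00015, and Spearman rho = 0.686, adjusted permutation p = 0.00024), and r was 0.678 without the 2 mice farthest from the median sum. Sdhd did so to a like degree (Pearson r = 0.686, adjusted permutation p = 0.00015, and Spearman rho = 0.689, adjusted permutation p = 0.0002), with r = 0.660 without those mice. With each group's mean subtracted, r was 0.660 and rho 0.699 for Cox5a (adjusted permutation p = 0.00024 and 0.0002), and r was 0.532 and rho 0.496 for Sdhd (adjusted permutation p = 0.00461 and 0.0106). Without mice 5131 and 5125 these r were 0.662 and 0.467. With the relative depth, Cox5a had r = -0.01 and rho = 0.21 (adjusted permutation p = 0.961 and 0.343) and Sdhd had r = -0.14 and rho = 0.08 (adjusted permutation p = 0.490 and 0.731). These r were 0.27 and 0.07 without mice 5113 and 5155. P-values were adjusted over the 12 relations computed. Mice were permuted across all groups, also where group means were subtracted, which ties the values within a group. The p-values of those versions can therefore be too small.

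**Figure D3:**
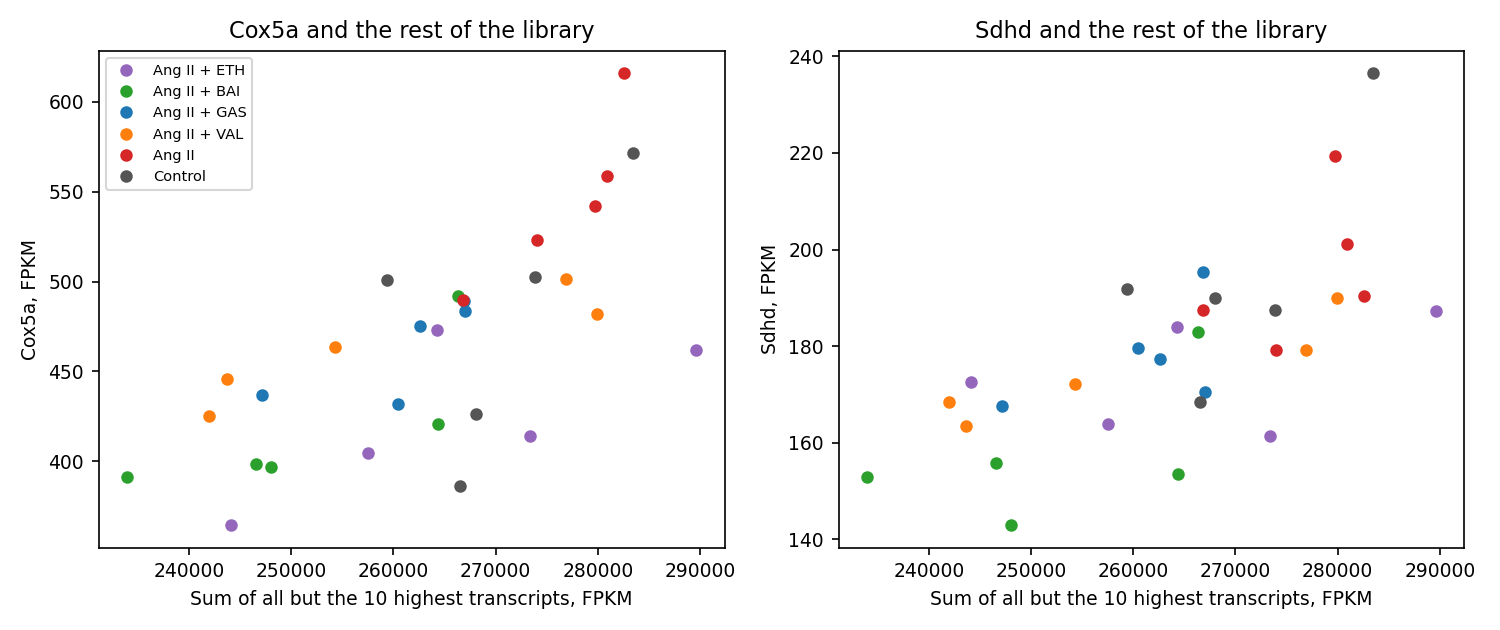
Cox5a (left) and Sdhd (right) in FPKM against the sum of all but the 10 most abundant transcripts of the same library, also in FPKM. Each point is 1 of 30 mice, coloured by group, and the axes do not start at 0. Mice with a larger remaining sum tended to have higher values of both transcripts (r = 0.700 and 0.686). Baicalin mice 5154, 5113 and 5133 lie towards the lower left, and baicalin mice 5138 and 5140 have larger remaining sums.

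To set the members against the bulk of other transcripts, each library was also scaled by the median ratio of 2915 transcripts at 5 FPKM or more in all 30 mice, a choice made after the data were seen. The median difference of all transcripts with baicalin from the Ang II group was -0.05 as deposited and 0.05 after this scaling. At an unadjusted p under 0.05, 6.73% of transcripts were lower and 3.02% higher with baicalin as deposited, against 3.36% and 6.65% after scaling. The differences of both members from the Ang II group were smaller after scaling. For Cox5a they were -0.31 with ethoxysanguinarine (interval -0.45 to -0.17, adjusted p = 0.167), -0.24 with baicalin (interval -0.37 to -0.11, adjusted p = 0.230) and -0.16 with valsartan (interval -0.28 to -0.05, adjusted p = 0.598, limma). For Sdhd they were -0.11 with ethoxysanguinarine (interval -0.25 to 0.02, adjusted p = 0.613), -0.18 with baicalin (interval -0.32 to -0.03, adjusted p = 0.432) and -0.09 with valsartan (interval -0.21 to 0.04, adjusted p = 0.774, limma). After this scaling Cox5a in all 4 drug groups lay wholly below the Ang II group, which held for 0.782% of transcripts with ethoxysanguinarine, 0.882% with baicalin, 0.53% with gastrodin and 0.533% with valsartan. Nothing is read from these shares. The 4 comparisons share the Ang II mice, whose Cox5a was in view at the choice, and the one with gastrodin chose the transcript. Its means were 421 FPKM with ethoxysanguinarine, 441 FPKM with baicalin, 461 FPKM with gastrodin and 467 FPKM with valsartan, against 523 FPKM in Ang II mice and 471 FPKM in Control mice. Sdhd with baicalin averaged 166 FPKM, against 187 FPKM in Ang II mice and 192 FPKM in Control mice. Under quantile normalization the differences from the Ang II group were -0.33 with ethoxysanguinarine, -0.18 with baicalin and -0.13 with valsartan for Cox5a. For Sdhd they were -0.09, -0.07 and -0.06 in the same order, none with an unadjusted p under 0.05. The part of the most abundant transcripts in these differences was not tested.

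The levels of Cox5a and Sdhd went together from mouse to mouse. Both were chosen with measured values in view, so the p-values below are given as a description. They also come from permutations across all groups, so those with group means subtracted can be too small. Over the 30 mice Pearson's r of log2(FPKM + 1) was 0.762 and Spearman's rho 0.779 (adjusted permutation p = 0.00012 for each, from the smallest p that 100000 resamples can give). Without the 2 mice farthest from the median of Cox5a, r was 0.837. With group means subtracted r was 0.699 and rho 0.559 (adjusted permutation p = 0.00015 and 0.00362), and r was 0.553 without Control mice 5155 and 5114. After median-ratio scaling r was 0.536 and rho 0.509 (adjusted permutation p = 0.00461 and 0.00858), with r = 0.693 without mice 5156 and 5118. With group means subtracted as well, r was 0.413 and rho 0.369 (adjusted permutation p = 0.0335 and 0.0687). This r was 0.245 without Control mice 5116 and 5114, so within groups the relation that remained after scaling was weaker without these 2 mice. No other pair of mice was left out of it. The labels name no batch within which the relation could be recomputed.

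Positive correlations with Cox5a were common. Among 6135 other transcripts with a mean of at least 5 FPKM, 75.7% had a positive r with Cox5a and the median r was 0.17, against 47.3% and -0.02 after median-ratio scaling. Sdhd was number 40 in likeness to Cox5a, and Cox5a number 69 in likeness to Sdhd. After median-ratio scaling these places were 69 and 106, and with group means subtracted as well they were 203 and 239. The closest to Cox5a were ENSMUST00000078676 (r = 0.884, mean 241 FPKM) and ENSMUST00000033176 (r = 0.878, mean 273 FPKM). The closest to Sdhd were ENSMUST00000034049 (r = 0.909, mean 1231 FPKM) and ENSMUST00000102874 (r = 0.895, mean 556 FPKM). Each r is over 30 mice and describes likeness only, and these mice share the scaling of their libraries. The files pair no gene name with these identifiers.

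**Figure D4:**
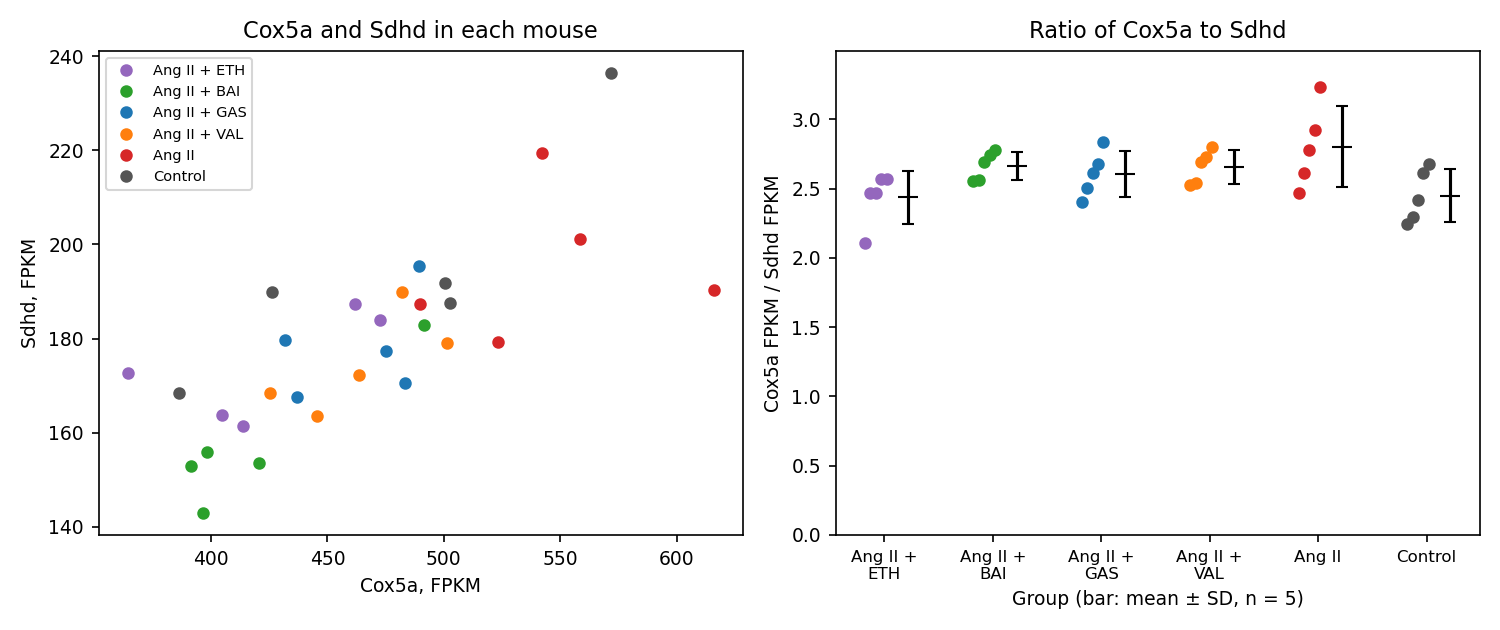
Left, Sdhd against Cox5a in FPKM, with 1 point for each of 30 mice and axes that do not start at 0. Right, the ratio of Cox5a to Sdhd in each mouse on an axis from 0, sorted within its group, with the mean and SD of 5 mice. Mice with a higher Cox5a tended to have a higher Sdhd (r = 0.762), though Ang II mouse 5156, highest in Cox5a, had 190.4 FPKM of Sdhd. The mean ratio was highest in the Ang II group (2.80).

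The ratio of Cox5a to Sdhd within a mouse does not depend on a factor that scales its whole library. Per length, Cox5a was 2.11 to 3.24 times as abundant as Sdhd, with a mean of 2.60 ± 0.215 (SD, n = 30). The ratio averaged 2.44 ± 0.189 with ethoxysanguinarine, 2.66 ± 0.102 with baicalin, 2.61 ± 0.166 with gastrodin, 2.66 ± 0.120 with valsartan, 2.80 ± 0.295 in the Ang II group and 2.45 ± 0.192 in the Control group (SD, n = 5 each). It is given as a description because the members were chosen with their values known. Every group overlapped with every other. The highest ratio of the study, 3.24 in Ang II mouse 5156, came with the highest Cox5a, and the lowest, 2.11 in ethoxysanguinarine mouse 5118, with the lowest Cox5a.

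The SD of log2(FPKM + 1) within groups was 0.14 for Cox5a and 0.12 for Sdhd. Of 117 transcripts within 2-fold of the mean level of Cox5a, 59.8% had a larger SD, and of 310 such transcripts for Sdhd, 81.9%. Median-ratio scaling lowered the SD to 0.10 for Cox5a and 0.09 for Sdhd.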

How the data were processed

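RNA from cardiac tissue was sequenced after removal of ribosomal RNA, and each of the 30 libraries is 1 mouse. The authors deposited a table per mouse with 1 value per transcript, read here as FPKM because values are fractional and their sums differ. Neither the unit nor the aligner, quantifier or annotation is stated in the labels, files or methods read here. The submitters' processing notes name mm10 and limma, and the study's methods name DESeq. The deposited tables hold 31078 to 31852 transcripts, depending on the group. Gene locations came from the RefSeq table of GRCm38.

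Groups came from the labels. Values were tested as log2(FPKM + 1) with limma 3.58.1 in R 4.3.3 (mean-variance trend, two-sided, fitted to each pair of groups alone) where 5 of 10 libraries or more reached 1 FPKM, with Benjamini-Hochberg adjustment. The script was tested on simulated data. Correlations used 100000 permutations of mice across all groups (two-sided, scipy 1.17.1), and figures matplotlib 3.10.9. The alternatives were quantile normalization, no trend, no filter, a mean of at least 5, all 6 groups in one fit, a pseudocount of 0.1 and each mouse left out. Both scalings to the bulk of transcripts were added after the data were seen. The members and lists were chosen with earlier results of these data known. Named transcripts are the members and the 2 most alike to each by Pearson r. Lists of other complex II and IV genes and of cell type markers were not analysed here, as 0 identifiers matched a gene name, and no sequence was used.
The planned test of the Cox5a to Sdhd ratio was left out, since the members were chosen with their values known.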

Additional observations from a re-analysis of the deposited data

Results flagged for a closer look

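In 18 checks of Cox5a, Sdhd and their ratio within groups of 5, 1 mouse lay far from the others of its group. Ethoxysanguinarine mouse 5118 had a Cox5a to Sdhd ratio of 2.11, against 2.47 to 2.57 in the other mice of that group. Its gap to the nearest of them was 0.771 of the range of the group. Chance flags about 1 in 20 such checks.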

How the results depend on the processing

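Across 288 alternative fits of the 16 member tests, 0 passed an adjusted p of 0.05 (limma), with a lowest of 0.0625 for Cox5a with baicalin against Ang II when all 6 groups shared one fit. Under quantile normalization, Cox5a with gastrodin differed from Ang II by -0.11 and Sdhd by -0.018. Signs turned for 3 small differences. Cox5a with gastrodin against Control was 0.020 under quantile normalization and 0.019 under scaling to the sum without the 10 highest transcripts, and -0.10 to 0.037 with 1 mouse left out. Cox5a with valsartan against Control was 0.013 and 0.030 under the same scalings, and -0.10 to 0.037 with 1 mouse left out. Sdhd in Ang II against Control was -0.047 under quantile normalization, -0.035 under median-ratio scaling and -0.024 under scaling to that sum, and -0.039 to 0.082 with 1 mouse left out.

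The count of all transcripts past the adjusted threshold comes from the same fits as the members' adjusted p-values. It moved as follows, and the cause was not tested. For ethoxysanguinarine against Ang II it was 24, with 14 at a mean of at least 5, 10 with all 6 groups in one fit, and 11 to 42 with 1 mouse left out. For baicalin against Ang II it was 3, with 1 under quantile normalization, 0 without the trend, 54 with all 6 groups, 0 with a pseudocount of 0.1, 6 under median-ratio scaling, 6 under scaling to the sum, and 0 to 7 with 1 mouse left out. For gastrodin against Ang II it was 4, with 2 at a mean of at least 5, 0 with all 6 groups, and 2 to 11 with 1 mouse left out. For valsartan against Ang II it was 4, with 0 at a mean of at least 5, 1 with all 6 groups, 2 with a pseudocount of 0.1, and 0 to 6 with 1 mouse left out. For ethoxysanguinarine against Control it was 42, with 71 under quantile normalization, 78 with all 6 groups, 79 under median-ratio scaling, 64 under scaling to the sum, and 17 to 31 with 1 mouse left out. For baicalin against Control it was 2, with 5 under quantile normalization, 1 without the filter, 48 with all 6 groups, 1 with a pseudocount of 0.1, 4 under median-ratio scaling, 7 under scaling to the sum, and 0 to 12 with 1 mouse left out. For gastrodin against Control it was 13, with 7 at a mean of at least 5, 7 with all 6 groups, and 3 to 14 with 1 mouse left out. For valsartan against Control it was 2, with 0 at a mean of at least 5, 1 with all 6 groups, 0 with a pseudocount of 0.1, and 0 to 8 with 1 mouse left out. For Ang II against Control it was 7, with 2 at a mean of at least 5, 30 with all 6 groups, and 0 to 13 with 1 mouse left out. No paired analysis was possible because the labels tie no mouse of a group to a mouse of another. The absolute depth is unknown, so no counting error can be given.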
